A study of Mus musculus with 69 samples.

Results

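The 41 genes described here encode proteins that bring fatty acids into the cell, release them from lipid stores and lipoproteins, return them to storage, activate them and oxidize them in mitochondria and peroxisomes. They were chosen by gene symbol from knowledge of the pathway, and all 41 were found among the 24537 genes of each expression table. RNA-seq of polyA RNA was made from bone marrow-derived macrophages (BMDMs), cells grown from the marrow of female mice of 8 to 12 weeks with the growth factor M-CSF for 7 days. BMDMs of 5 inbred strains were used, C57BL/6J (here C57), SPRET/EiJ (SPRET), BALB/cJ (BALB), PWK/PhJ (PWK) and NOD/ShiLtJ (NOD), of which SPRET (Mus spretus) and PWK are wild-derived. Cells were left untreated (basal) or given 20 ng/ml of the cytokine IL-4 for 24 h, with 3 libraries in each group and 2 in basal PWK. A second set followed C57 and SPRET over time, at basal and after 1, 6 and 24 h of IL-4, with 2 libraries in each group. The same 4 times were measured, also with 2 libraries each, in BMDMs with both Egr2 alleles flanked by loxP sites and no Cre (Egr2 fl/fl, here Egr2WT) and in BMDMs of the same floxed genotype carrying LyzM-Cre, a Cre driven from the lysozyme gene in myeloid cells (LyzM-Cre Egr2 fl/fl, here Egr2MKO). F1 C57 x SPRET and F1 C57 x NOD BMDMs, basal and after 24 h of IL-4, added 8 libraries with values for each parental allele.

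Fatty acids enter macrophages through surface receptors such as CD36, arrive from lipoproteins cleaved by lipoprotein lipase, and are carried in the cytosol by fatty acid-binding proteins. Acyl-CoA synthetases activate them, the carnitine shuttle moves the long ones into mitochondria, and a spiral of dehydrogenases, hydratases and thiolases shortens them, passing electrons to the respiratory chain. Macrophages stimulated with IL-4 are known for a metabolism that leans on fatty acid oxidation, and the nuclear receptor PPARγ, which IL-4 induces, is known to control several uptake and storage genes.

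Values are TPM, a level per transcript length scaled to the total of the library. A gene was tested in a table if it reached 1 TPM in at least 2 libraries, which held for all 41 members among the 11907 genes tested in the 5 strains, for 40 members (all but Dgat2) of 12088 in the time course and for 41 members of 12079 in the Egr2 table. Differences are given on the log2 scale of TPM + 1 with their standard error, "rose", "fell" and "differed" mean an adjusted p under 0.05 in limma, and "over 2-fold" adds a log2 difference beyond 1. The tables were normalized separately, so tests were run within a table. The libraries held about 7024000 to 22494000 tags in the 5 strains, 5703000 to 23999000 in the time course and 4687000 to 32872000 in the Egr2 table, and nothing in the labels says whether libraries of a group came from separate mice, so that p-values measure only the spread between these libraries. Each of the 8 macrophage markers reached 1 TPM in some library, and most did so in every library. In the 5 strains Fcgr1 reached it in 26 and Mertk in 23 of 29 libraries, and in the time course Fcgr1 in 8 of 16. The summed level of all 8, mostly Lyz2, lay between 9465 and 54007 TPM in every library. Of 6 adipocyte markers, another cell type rich in these genes, none reached 1 TPM in any library, and their sum was at most 0.902 TPM. Summed levels of 8 neutrophil markers, mostly S100a8 and, in PWK, also S100a9, were 555 to 607 TPM in PWK and 249 to 405 TPM in SPRET of the 5-strain table, and they went from 113 to 140 TPM at basal to 20.8 to 26.4 TPM after IL-4 in C57. Of 6 stroma markers, Dcn alone made up nearly all of 204 to 212 TPM in basal PWK and 106 to 113 TPM in PWK after IL-4, against at most 16.7 TPM in any library of the other strains. Other markers of these lists were low in the 5 strains. Of the stroma list, Col1a1, Col1a2 and Col3a1 were at most 0.066, 0.065 and 0.016 TPM in any library, and Pdgfra and Lum 2.33 and 2.18 TPM. Of the neutrophil list, Ly6g, Mpo and Elane were at most 0.276, 0.834 and 1.31 TPM, and Ngp, Prtn3 and Camp 4.56, 9.50 and 12.3 TPM. In bulk RNA, fewer cells of a type and less RNA per cell cannot be told apart.

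After 24 h of IL-4, members of the pathway changed by small amounts in most strains, and few changed by more than 2-fold. In C57, 10 of 41 members rose and 4 fell, where 15.0% and 20.5% of all genes tested did. In BALB, 1 member rose and 10 fell, against 9.45% and 24.8% of all genes. In NOD, 23 rose and 2 fell (28.2% and 6.07% of all genes), in PWK 20 rose and 1 fell (18.6% and 6.08%), and in SPRET 21 rose and 5 fell (31.4% and 12.9%). The median log2 change of the members was 0.24 in NOD, 0.22 in PWK, 0.19 in SPRET, 0.07 in C57 and -0.07 in BALB, beside 0.12, 0.08, 0.11, -0.04 and -0.11 over all genes tested. These counts moved with the scaling between libraries. With median-ratio scaling, which sets the median change of all genes near 0, members counted 15 higher and 3 lower in C57, 11 higher and 6 lower in NOD, 11 higher and 3 lower in PWK, 14 higher and 7 lower in SPRET and 9 higher and 3 lower in BALB. With quantile normalization BALB counted 3 higher and 8 lower, so the direction of its small changes depended on the scaling. Median-ratio scaling moved the median log2 change of all genes by 0.11 in BALB, -0.14 in NOD and -0.11 in SPRET, and the changes below are on TPM as deposited unless scaling is named. Over 2-fold rises among all genes tested made up 2.32% in SPRET, 2.28% in C57, 1.54% in PWK, 1.27% in BALB and 0.731% in NOD, and over 2-fold falls 1.62%, 1.53%, 0.546%, 0.815% and 0.462%. Among the members, Cd36 rose over 2-fold in C57, PWK and SPRET, Fabp4, Lpl and Mgll did so in SPRET, Acsl1 fell over 2-fold in C57 and BALB, and Dgat2 fell over 2-fold in PWK. Cd36 was the 1 member that rose in all 5 strains, 4 members (Etfa, Etfb, Etfdh and Acaa2) rose in every strain but BALB, 10 members rose in some strains and fell in others, and 4 (Hadh, Crat, Slc27a4 and Dgat1) passed the test in none.

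**Figure D1:**
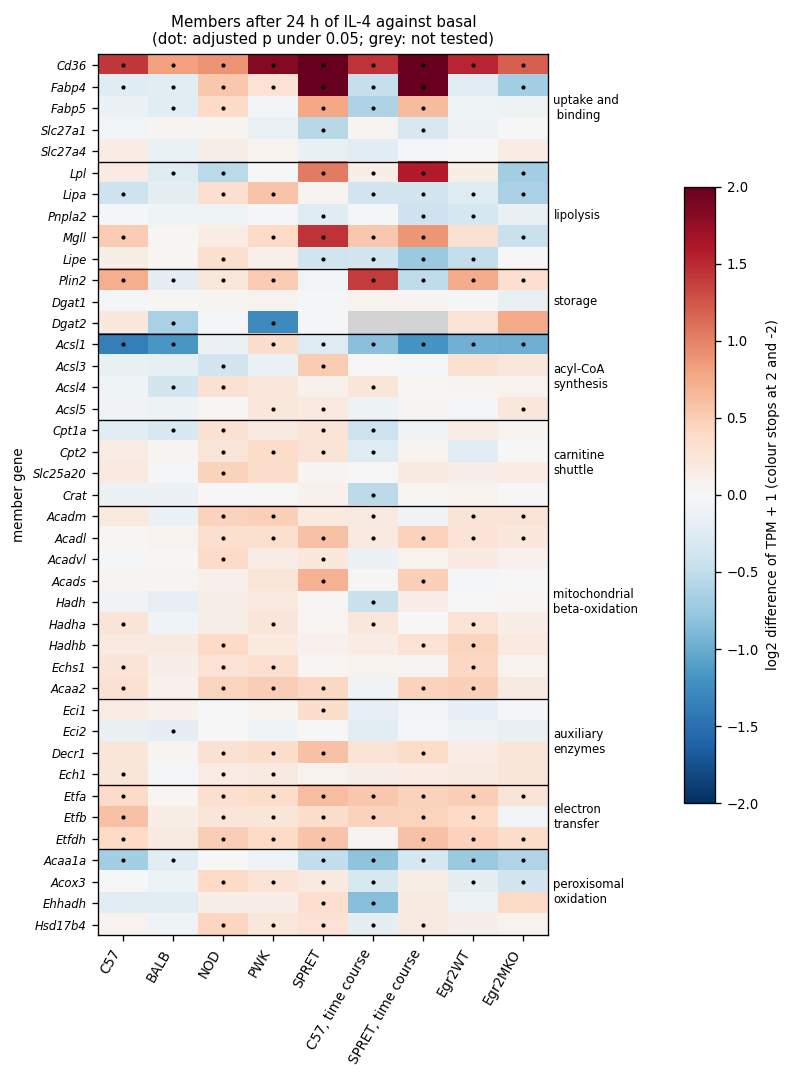
The 41 members (rows, by role) after 24 h of IL-4 against basal in the 5 strains, in C57 and SPRET of the time course, and in Egr2WT and Egr2MKO (columns); colour is the log2 difference of TPM + 1, a dot marks an adjusted p under 0.05, and grey marks Dgat2, not tested in the time course. The Cd36 row is red with a dot in all 9 columns, the Acsl1 row is blue in 8 of them with PWK the exception, and the electron transfer rows are pale red in nearly all columns.

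Cd36, on chromosome 5 (17781690 to 17888959, minus strand, mm10), encodes the scavenger receptor that takes up long-chain fatty acids and oxidized lipoproteins. In basal C57 it stood at 102, 94.8 and 101 TPM and after 24 h of IL-4 at 289, 286 and 231 TPM, a log2 change of 1.42 ± 0.08 (SE), adjusted p = 5.2e-13. All treated libraries lay above all basal ones, in C57 and in each of the other strains. BALB went from 77.7, 66.5 and 70.3 to 139, 108 and 134 TPM (0.81) and NOD from 54.7, 55.2 and 56.1 to 110.4, 94.7 and 108 TPM (0.90), the smallest rises of the 5. PWK started lowest, at 9.91 and 11.2 TPM, and reached 38.8, 41.6 and 41.1 TPM, a log2 change of 1.84 ± 0.09 (SE), adjusted p = 8.0e-14. SPRET went from 90.0, 89.5 and 89.4 to 366, 385 and 391 TPM, a log2 change of 2.07 ± 0.08 (SE), adjusted p = 1.6e-16. The rise was smaller than in C57 in BALB (difference of log2 changes -0.60) and NOD (-0.52), and larger in PWK (0.43) and SPRET (0.66), each past the test. The larger rise in PWK did not pass with median-ratio scaling (0.26). PWK, 8.69-fold below C57 at basal on the TPM + 1 scale, still held less Cd36 RNA after IL-4 than C57 held at basal.

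The Cd36 promoter is shown because it is the 1 member promoter that holds TTC and GAA with any 4 bases between, a spacing that STAT6, the transcription factor activated by IL-4, is known to bind. The window runs from 250 bases before to 30 bases after a RefSeq start site on the minus strand (GRCm38.p6, chr5:17835867-17836146), a start inside the span above and away from its 5′ end, written 5′ to 3′ with the match in capitals, beginning 20 bases past the start.
Cd36: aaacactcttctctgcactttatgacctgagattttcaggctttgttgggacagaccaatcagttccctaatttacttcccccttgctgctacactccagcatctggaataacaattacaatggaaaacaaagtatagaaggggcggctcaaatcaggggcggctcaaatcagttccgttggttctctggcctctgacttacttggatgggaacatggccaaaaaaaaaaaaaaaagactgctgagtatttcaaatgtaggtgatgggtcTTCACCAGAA
RefSeq promoter windows of 300 bases were at hand for 32 of the 41 members. Both strands were searched, and 6.95% of all 32851 windows held these letters. No member window held a direct repeat of AGGTCA with 1 base between, the form of a PPAR element, nor the same with any base in the fourth place of each unit, letters found in 0.0396% and 0.381% of all windows. The match is a description of the C57 reference letters and no evidence of binding, and other start sites of Cd36 were not analysed.

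Fabp4 (chromosome 3, 10204343 to 10208576) encodes the adipocyte fatty acid-binding protein, which macrophages also make in quantity. It stood at 556, 609 and 633 TPM in basal C57 and at 14.8, 12.2 and 16.2 TPM in basal SPRET, the widest basal gap between strains of any member on the TPM + 1 scale. In SPRET it rose after IL-4 to 57.2, 65.3 and 61.8 TPM, a log2 change of 2.02 ± 0.08 (SE), adjusted p = 2.6e-17. In C57 it fell to 495, 508 and 519 TPM (-0.24), so that the response in SPRET exceeded that in C57 by 2.26 ± 0.11 (SE), adjusted p = 2.2e-14. The strains thus moved toward each other, though all C57 libraries after IL-4 remained far above all SPRET ones. BALB fell slightly (-0.23) from a mean of 281 TPM, NOD rose (0.53) from 459.9 TPM, and PWK rose (0.29) from 65.1 and 67.6 TPM. With median-ratio scaling the changes in C57 (-0.19), BALB (-0.09) and PWK (0.17) did not pass.

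Fabp5, the epidermal fatty acid-binding protein, had high levels everywhere, from basal means of 518 TPM in SPRET to 1211 TPM in C57. SPRET rose from 513, 503 and 537 to 856, 892 and 911 TPM (0.77 ± 0.05 (SE), adjusted p = 1.5e-11). In NOD it rose by 0.38, in BALB it fell (-0.22), and in C57 and PWK its changes of -0.11 and -0.06 did not pass the test. Of the fatty acid transport proteins, Slc27a1 fell in SPRET (-0.55) and did not pass elsewhere, and Slc27a4 changed by -0.14 to 0.15 with no call in any strain.

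Lpl (chromosome 8, 68880555 to 68906932) encodes lipoprotein lipase, which frees fatty acids from the triglycerides of lipoproteins. Its basal level was 597, 539 and 598 TPM in C57, 319.6, 319 and 310.5 in BALB, 228 and 216 in PWK, 65.0, 67.5 and 75.7 in NOD and 34.9, 30.2 and 29.1 in SPRET. Every NOD and SPRET library lay below every library of the other 3 strains, and against C57 the log2 difference was -3.04 ± 0.08 (SE), adjusted p = 5.2e-21 in NOD and -4.16 ± 0.08 (SE), adjusted p = 2.2e-24 in SPRET. After IL-4 SPRET rose to 62.2, 63.2 and 71.0 TPM (1.04 ± 0.08 (SE), adjusted p = 2.9e-11), NOD fell to 52.0, 41.3 and 50.2 TPM (-0.53 ± 0.08 (SE), adjusted p = 8.8e-06), and C57 stood at 674, 665 and 601 TPM, a change of 0.16 that did not pass. BALB fell (-0.24, and -0.10 without a call with median-ratio scaling) and PWK changed by -0.01 without a call.

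Mgll (chromosome 6, 88724704 to 88828360) encodes monoacylglycerol lipase, which cuts the last fatty acid from glycerol. Its basal levels also spread widely, with 126, 135 and 131 TPM in NOD, 99.5, 106 and 102 in BALB, 36.2, 45.2 and 39.9 in SPRET, 17.7, 17.3 and 17.4 in C57 and 8.54 and 8.68 in PWK. These 5 sets of libraries did not overlap, and all 4 strains differed from C57 (log2 differences 2.83, 2.49, 1.16 and -0.94). After IL-4 it rose in SPRET to 111, 116 and 107 TPM (1.45 ± 0.06 (SE), adjusted p = 3.0e-16), in C57 to 23.9, 24.2 and 27.4 TPM (0.50) and in PWK to 11.6, 11.2 and 12.2 TPM (0.40). BALB (0.02) and NOD (0.15), the strains with the highest basal level, showed no call.

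The other lipases changed less. Lipa, lysosomal acid lipase, fell in C57 (-0.42 ± 0.07 (SE), adjusted p = 3.3e-05) from 339.8, 373 and 318 to 279, 261 and 230.4 TPM and rose in NOD (0.34) and PWK (0.58), opposite directions whose difference passed the test in both (0.76 and 0.99). Under median-ratio scaling the 3 changes still passed. Lipe, hormone-sensitive lipase, rose in NOD (0.32) and fell in SPRET (-0.39). Pnpla2, adipose triglyceride lipase, the enzyme of the first step, fell in SPRET (-0.24) and changed by -0.09 to -0.02 in the other 4 strains without a call.

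Plin2 (chromosome 4, 86656565 to 86670059) encodes perilipin 2, the coat protein of macrophage lipid droplets. In C57 it rose from 169, 170.0 and 168 to 293, 285 and 268 TPM (0.73 ± 0.05 (SE), adjusted p = 1.1e-12), in PWK from 91.8 and 87.6 to 128, 131 and 126 TPM (0.51) and in NOD from 172, 165 and 172 to 211, 195 and 192 TPM (0.23). BALB fell from 136, 124 and 125 to 117, 111 and 111 TPM (-0.18), and SPRET, at 67.3, 66.3 and 67.9 TPM before and 61.2, 66.3 and 67.2 TPM after, changed by -0.05 with no call. The responses of all 4 strains were smaller than that of C57, with log2 differences of -0.91 in BALB, -0.78 in SPRET, -0.50 in NOD and -0.22 in PWK. With median-ratio scaling the small changes in BALB (-0.04) and NOD (0.04) did not pass.

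Dgat1 and Dgat2 encode the acyltransferases of the last step of triglyceride synthesis. Dgat1 lay between basal means of 12.8 TPM in NOD and 17.8 TPM in PWK and changed by -0.04 to 0.07 with no call in any strain. Dgat2 was low in most libraries, at 1.33, 0.819 and 1.27 TPM in C57, 0.278, 0.304 and 0.0880 in SPRET, 2.13, 1.89 and 3.96 in NOD and 5.15, 4.76 and 4.08 in BALB, and highest in PWK at 13.5 and 10.5 TPM. PWK fell to 4.10, 4.56 and 4.25 TPM after IL-4 (-1.28 ± 0.17 (SE), adjusted p = 2.2e-06), BALB fell to 3.02, 2.08 and 2.83 TPM (-0.64), and in PWK the stroma marker Dcn stood at 201 and 208 TPM in the same basal libraries and at 106, 104 and 110.2 TPM after IL-4. The collagen genes of the stroma list were at most 0.066 TPM in any library of this table, and the part of stroma RNA in the fall of Dgat2 was not tested.

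**Figure D2:**
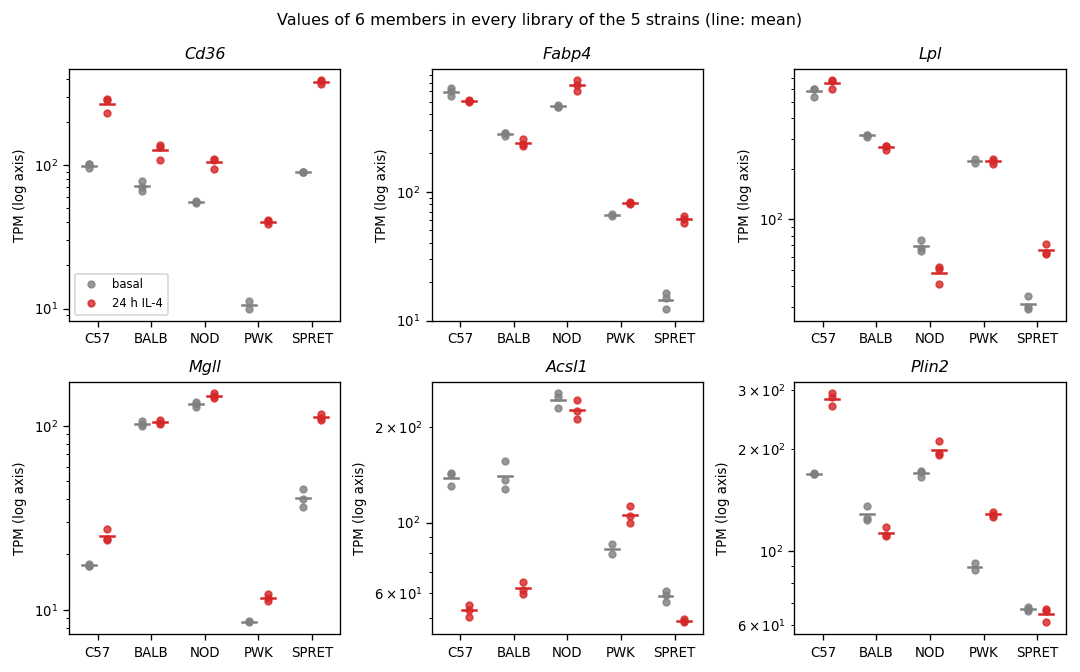
TPM of Cd36, Fabp4, Lpl, Mgll, Acsl1 and Plin2 in every library of the 5 strains (log axis), basal in grey and after 24 h of IL-4 in red; each point is a library and each line a group mean. Red points lie above grey ones for Cd36 in all 5 strains, the SPRET points of Fabp4 and Lpl lie far below those of C57 and rise with IL-4, and the Acsl1 points of C57 and BALB drop.

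Acsl1 (chromosome 8, 46471037 to 46536051) encodes a long-chain acyl-CoA synthetase known for its part in inflammatory macrophages, which activates fatty acids for oxidation or lipid synthesis. In C57 it fell from 144, 142 and 130.3 to 55.2, 50.3 and 53.2 TPM (-1.37 ± 0.07 (SE), adjusted p = 8.5e-15) and in BALB from 156, 128 and 136 to 65.1, 59.6 and 61.4 TPM (-1.16 ± 0.07 (SE), adjusted p = 5.9e-13). NOD, whose basal level of 229.5, 255 and 248 TPM was the highest, stood at 244, 212 and 224 TPM after IL-4 (-0.11, no call). PWK rose from 85.5 and 79.9 to 105, 113 and 99.4 TPM (0.35), and SPRET went from 59.0, 61.1 and 56.1 to 48.5, 49.7 and 48.9 TPM (-0.25). The difference from the C57 response was 1.26 ± 0.09 (SE), adjusted p = 2.3e-10 in NOD, 1.72 ± 0.10 (SE), adjusted p = 4.3e-12 in PWK and 1.12 ± 0.09 (SE), adjusted p = 1.2e-09 in SPRET. S100a8, a neutrophil and monocyte marker, went from 94.0, 87.1 and 111 to 14.6, 16.1 and 12.7 TPM in C57, from 48.8, 56.7 and 53.2 to 17.0, 16.0 and 17.7 TPM in BALB, and from 49.3, 38.0 and 47.2 to 13.3, 15.1 and 13.3 TPM in NOD, where Acsl1 had no call. In SPRET of the time course Acsl1 fell over 2-fold while the neutrophil markers summed to 67.9 to 75.3 TPM before and 72.0 to 92.2 TPM after. The part of such cells in the fall of Acsl1 was not tested.

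The other synthetases moved less. Acsl3, which acts at lipid droplets, was higher in basal BALB (13.7, 13.7 and 13.9 TPM) than in basal C57 (3.31, 4.25 and 3.37 TPM) by 1.67 ± 0.10 (SE), adjusted p = 8.0e-13, fell in NOD (-0.37) and rose in SPRET (0.50). Acsl4, which prefers arachidonic acid, fell in BALB (-0.37) and rose in NOD (0.31). Acsl5 rose in PWK (0.22) and SPRET (0.20) and had the narrowest spread of basal means of any member, with 1.30 times between the highest and lowest strain.

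The 4 genes of the carnitine shuttle had no call in C57. Cpt1a, the carnitine palmitoyltransferase of the outer membrane and the known control point of the pathway, changed by -0.23 in C57 without a call, fell in BALB (-0.30) and rose in NOD (0.30) and SPRET (0.27). Cpt2, its partner on the inner membrane, rose in NOD, PWK and SPRET (0.25, 0.37 and 0.26). Slc25a20, the carnitine-acylcarnitine carrier between them, rose in NOD (0.46), and Crat, carnitine acetyltransferase, showed no call. With median-ratio or quantile scaling Cpt2 in PWK was the 1 of these 7 calls left. In C57 of the time course, however, 3 of the 4 shuttle genes fell at 24 h. The log2 changes of the 4 ran from -0.52 to -0.01 there, and 0 of the 4 passed in SPRET of the time course.

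Of the 9 genes of the mitochondrial spiral, 6 rose in NOD, 5 in PWK, 4 in SPRET, 3 in C57 and 0 in BALB. None of the 9 fell in limma in any strain of the 5-strain table. In BALB, 0 of the 9 passed at an unadjusted p under 0.05 either. Of these 18 calls, 14 remained with median-ratio scaling. No change reached 2-fold. The largest were those of Acads, the short-chain acyl-CoA dehydrogenase, in SPRET (0.70 ± 0.08 (SE), adjusted p = 1.9e-07), and of Acadl, the long-chain dehydrogenase, in SPRET (0.59 ± 0.06 (SE), adjusted p = 3.6e-09). Acaa2, the mitochondrial thiolase, rose in C57, NOD, PWK and SPRET by 0.30, 0.45, 0.49 and 0.41. The medium-chain dehydrogenase gene Acadm rose in NOD (0.45) and PWK (0.47), and Acadvl, for very long chains, rose in NOD (0.39) and SPRET (0.22). Hadha, the alpha subunit of the trifunctional protein, rose in C57 (0.26) and PWK (0.24), its beta subunit Hadhb in NOD (0.40), and the hydratase Echs1 in C57, NOD and PWK (0.26, 0.29 and 0.33). Hadh, the short-chain hydroxyacyl-CoA dehydrogenase, had no call in the 5-strain table. In C57 of the time course 3 of the 9 spiral genes rose and 1 fell at 24 h, with log2 changes from -0.45 to 0.22. In SPRET of the time course 4 rose and 0 fell.

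All 3 electron transfer genes rose in 4 of the 5 strains. Etfa and Etfb, the subunits of the flavoprotein that takes electrons from the acyl-CoA dehydrogenases, and Etfdh, the oxidoreductase that passes them to ubiquinone, rose in C57 (0.39, 0.58 and 0.40), NOD (0.34, 0.24 and 0.49), PWK (0.37, 0.25 and 0.39) and SPRET (0.61, 0.35 and 0.56), and in BALB none passed (0.05, 0.13 and 0.18). With median-ratio scaling all 3 still passed in C57 and SPRET, Etfdh alone in NOD (0.32), and none in PWK (0.24, 0.12 and 0.28). At 24 h of the time course in C57 2 of the 3 rose, and in Egr2MKO also 2. In C57 the values of Etfb were 79.9, 76.5 and 86.6 TPM at basal and 107, 127 and 131 TPM after IL-4, and the libraries did not overlap. Of the auxiliary enzymes for unsaturated chains, Decr1 rose in NOD, PWK and SPRET (0.30, 0.36 and 0.59), Ech1 in C57, NOD and PWK (0.24, 0.15 and 0.19), Eci1 in SPRET (0.35), and Eci2 fell in BALB (-0.20). Of these 8 calls, those of Ech1 in C57 and Decr1 in SPRET were left with median-ratio or with quantile scaling, and Ech1 in NOD turned to -0.038 with median-ratio scaling.

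In peroxisomes, Acaa1a, the thiolase, went against its mitochondrial counterpart. It fell in C57 from 152, 168 and 156 to 95.3, 94.1 and 108 TPM (-0.68 ± 0.06 (SE), adjusted p = 2.9e-09), in BALB (-0.22) and in SPRET (-0.49), and changed by -0.01 in NOD and -0.09 in PWK without a call. Acaa1a has a near-identical neighbour, Acaa1b, so reads shared by the pair may have been split between them. Acox3, an acyl-CoA oxidase, and Hsd17b4, the D-bifunctional protein, rose in NOD (0.40 and 0.43), PWK (0.27 and 0.23) and SPRET (0.19 and 0.29). Ehhadh, the L-bifunctional enzyme, rose in SPRET (0.34). The calls of Hsd17b4 in PWK and of Acox3 and Ehhadh in SPRET were lost with median-ratio and with quantile scaling, and that of Acaa1a in BALB with median-ratio scaling. All 4 peroxisomal genes fell at 24 h in C57 of the time course, by log2 changes of -0.85 to -0.19. In SPRET of the time course 1 of the 4 rose and 1 fell.

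At basal, most oxidation genes were lower in NOD than in C57. Of 41 members, 4 were higher and 33 lower in NOD than in C57, beside 20.1% and 54.1% of all genes tested, and NOD had the lowest mean of the 5 strains for 24 members and for 41.3% of all genes tested. The median log2 difference was -0.78 for the members and -0.30 for all genes. With median-ratio scaling, which moved the median of all genes by 0.30, members counted 10 higher and 25 lower and their median was -0.40. All 9 genes of the mitochondrial spiral, all 4 of the carnitine shuttle, all 4 peroxisomal genes and all 3 electron transfer genes were lower in limma on TPM as deposited, and under median-ratio scaling Etfb (0.19) and Crat (0.15) were instead higher. The spiral ranged from -1.58 to -0.78.

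Acadm was 6.46, 6.02 and 8.21 TPM in NOD and 23.7, 24.5 and 19.4 TPM in C57 (-1.58 ± 0.09 (SE), adjusted p = 3.6e-14), and Acaa2 11.1, 10.6 and 10.1 TPM and 32.4, 31.5 and 35.8 TPM (-1.56 ± 0.07 (SE), adjusted p = 3.6e-16). Hsd17b4 was 9.64, 10.6 and 9.28 TPM in NOD and 34.0, 35.7 and 30.9 TPM in C57 (-1.67), and Slc25a20 2.27, 4.77 and 4.54 and 15.4, 13.0 and 17.3 TPM (-1.78). None of these 4 pairs of groups overlapped. Hadh stood at 8.16, 9.26 and 11.4 against 31.6, 24.5 and 27.5 TPM (-1.45), Acadl at 25.3, 28.5 and 27.6 against 63.1, 68.3 and 66.9 TPM (-1.26), and Cpt1a at 3.88, 4.76 and 3.81 against 10.8, 12.7 and 9.82 TPM (-1.23). Lipe was 1.64, 2.10 and 2.46 TPM in NOD and 12.6, 11.3 and 12.3 TPM in C57 (-2.10). Above C57 in NOD were Mgll, Acsl1 (0.81), Dgat2 (0.74) and Acsl5 (0.24).

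In PWK, 5 members were higher and 26 lower than in C57 (19.7% and 41.5% of all genes), and 11 higher and 22 lower with median-ratio scaling. The medians were -0.40 for the members and -0.16 for all genes. The gaps over 2-fold were in Cd36 (-3.12), Fabp4 (-3.15), Fabp5 (-1.07, 569 and 581 TPM against 1169.9, 1201 and 1262 TPM), Lpl (-1.37), Slc25a20 (-1.33, 5.42 and 5.41 TPM in PWK) and, in the other direction, Dgat2 (2.60). PWK was also the strain with Dcn and S100a9 far above the others, and their part in these differences was not tested. In BALB, 17 members were higher and 11 lower than in C57 (24.8% and 18.4% of all genes), and only Mgll, Acsl3 and Dgat2 (1.41), all higher, and Fabp4, lower (-1.09), were over 2-fold apart.

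In SPRET, 15 members were higher and 14 lower than in C57 (35.5% and 32.9% of all genes). The split ran within some roles, with 5 higher and 4 lower in the mitochondrial spiral and 2 and 2 among the lipolysis genes. The auxiliary enzymes had 3 higher and 0 lower, and the storage genes 0 higher and 2 lower. Hadhb, at 19.7, 20.2 and 19.6 TPM in SPRET and 3.81, 5.23 and 4.80 TPM in C57, was higher by 1.90 ± 0.12 (SE), adjusted p = 6.3e-13, and Ehhadh, at 5.36, 5.69 and 6.39 and 0.615, 1.28 and 1.08 TPM, by 1.79 ± 0.11 (SE), adjusted p = 4.6e-13. Acaa2 was higher by 1.09 (71.5, 73.1 and 71.0 TPM in SPRET), while Acads was lower by 1.12 on the log2 scale (20.2, 18.6 and 21.1 TPM against 45.3, 39.6 and 49.4 TPM) and Lipa by 1.57 (115, 117 and 113 TPM). Plin2 (-1.32), Acsl1 (-1.22) and Fabp5 (-1.22) were also over 2-fold lower. Over all 5 strains, basal means of 34 of 41 members differed more than 2 times between the highest and the lowest strain, as did those of 60.3% of all genes tested that reached a basal mean of 5 TPM. The median ratio of the members was 3.18. The ratios of Dgat2 (53.6) and Ehhadh (26.4) rest on means under 1 TPM in the lowest strain, and on the log2 scale of TPM + 1 the widest gaps were those of Fabp4 (5.28), Lpl (4.16), Mgll (3.77) and Dgat2 (3.41), against 2.48 for Ehhadh.

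**Figure D3:**
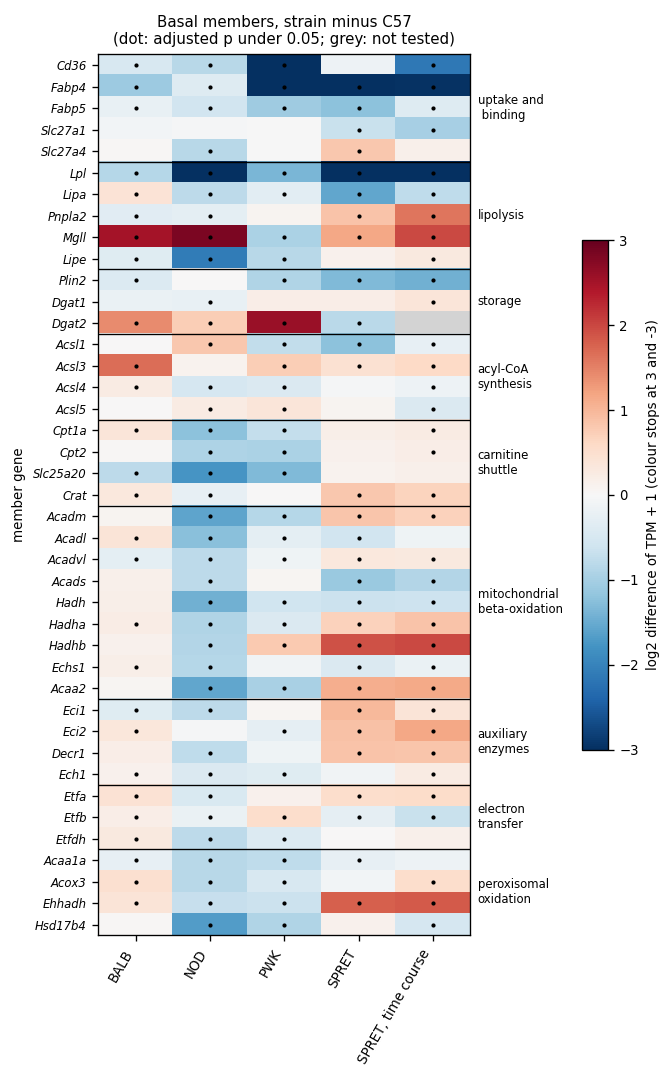
Basal difference of the 41 members (rows, by role) from C57 in BALB, NOD, PWK and SPRET, and in SPRET of the time course (columns); colour is the log2 difference of TPM + 1 and a dot marks an adjusted p under 0.05. The NOD column is blue through the carnitine shuttle, beta-oxidation, electron transfer and peroxisomal rows, and Hadhb and Ehhadh are red in both SPRET columns.

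Hadha and Hadhb (chromosome 5, 30155253 to 30184593) are transcribed from opposite strands of chromosome 5, and their RefSeq promoter windows of 300 bases overlap by 228 bases. The gene pair differed from C57 by unequal amounts. In basal SPRET Hadhb exceeded C57 by 1.90 and Hadha by 0.69, and in basal PWK Hadhb was higher (0.80) while Hadha was lower (-0.44). In NOD both were lower (-0.89 and -0.91). The Hadhb window is shown because its first 228 bases also belong to the window of Hadha (GRCm38.p6, chr5:30155003-30155282, plus strand, 5′ to 3′, from 250 bases before to 30 after the start), with the letters GTGGG, the core of the site that EGR proteins bind, in capitals.
Hadhb: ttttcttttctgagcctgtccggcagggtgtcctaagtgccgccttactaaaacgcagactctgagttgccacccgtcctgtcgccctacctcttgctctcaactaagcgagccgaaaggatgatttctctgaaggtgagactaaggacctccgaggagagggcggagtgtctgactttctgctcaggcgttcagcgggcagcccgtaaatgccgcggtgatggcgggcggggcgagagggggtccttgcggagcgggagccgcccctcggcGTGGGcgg
GTGGG on either strand occurred in at least 1 window of 24 of the 32 members, some of which have more than 1 window. It occurred in 62.0% of all 32851 windows, a share per window and not per gene.

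The response to IL-4 differed from that in C57 for 10 members in BALB (15.8% of all genes tested), 16 in NOD (33.3%), 12 in PWK (22.4%) and 22 in SPRET (33.4%). Higher and lower responses numbered 1 and 9 in BALB, 11 and 5 in NOD, 9 and 3 in PWK and 15 and 7 in SPRET. With median-ratio scaling, which moved the median of all genes by -0.18 in NOD, -0.14 in PWK and -0.16 in SPRET, they were 3 higher and 7 lower in BALB, 7 higher and 10 lower in NOD, 3 higher and 5 lower in PWK and 11 higher and 9 lower in SPRET. Since these differences share the C57 libraries, they are not independent. Lower in BALB than in C57 were the responses of Plin2, Cd36, Mgll (-0.48) and Etfb (-0.45). In PWK, Dgat2 (-1.50 ± 0.23 (SE), adjusted p = 2.8e-05) and Acsl1 were over 2-fold apart from C57. In SPRET, the responses of Fabp5 (0.89), Lpl (0.88), Mgll (0.95) and Acads (0.64) also exceeded those in C57.

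The time course followed C57 and SPRET from 1 h on. At 1 h 1 of 40 members tested had changed in C57 (3.95% of all genes) and 6 in SPRET (8.75%), at 6 h 10 (20.4%) and 15 (30.6%). At 24 h 10 had risen and 13 fallen in C57 (18.2% and 21.1% of all genes), and 14 had risen and 7 fallen in SPRET (14.8% and 21.8%). At 6 h in SPRET the split was 6 higher and 9 lower, and 4 higher and 10 lower with median-ratio scaling. Cd36 was the 1 member that passed at 1 h in C57 (0.22).

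Cd36 rose step by step in SPRET, from 59.2 and 63.5 TPM to 90.3 and 91.6 at 1 h, 132 and 128 at 6 h and 343 and 339.5 at 24 h, log2 changes of 0.56, 1.07 and 2.46. In C57 it went from 286 and 263 TPM to 322 and 317, 333 and 336 and 762 and 738 TPM, with most of the rise after 6 h. The basal levels differed by -2.14 ± 0.05 (SE), adjusted p = 3.7e-12 in this table, while in the 5-strain table basal SPRET and C57 did not differ beyond the spread (-0.15 ± 0.08 (SE), adjusted p = 0.12). Fabp4 in SPRET stood at 42.4 and 43.7 TPM, 40.1 and 44.0 at 1 h, 129 and 117 at 6 h and 276 and 291 at 24 h (2.69 ± 0.07 (SE), adjusted p = 5.1e-11). In C57 it fell from 367 and 318 to 243 and 256 TPM (-0.45), so that after 24 h the libraries of SPRET lay above those of C57, which they did not in the 5-strain table.

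Lpl in SPRET moved late. It was 131 and 143 TPM at basal, 121 and 117 at 1 h, 124 and 119 at 6 h and 412 and 412 at 24 h (1.58 ± 0.05 (SE), adjusted p = 1.9e-10), with small falls at 1 h (-0.20) and 6 h (-0.17). In C57 it was 1128 and 1118, 1162 and 1216, 900.3 and 943 and 1251 and 1224 TPM at the same times. Mgll dipped at 6 h in both strains (-0.42 in C57 and -0.30 in SPRET) and was above basal at 24 h (0.54 and 0.89), with 213 and 201 TPM in SPRET and 42.0 and 39.0 TPM in C57.

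Plin2 had the largest difference between the strains among members that rose in C57. C57 held 215 and 210.1 TPM at basal, 223 and 209.7 at 6 h and 557 and 566 at 24 h (1.40 ± 0.06 (SE), adjusted p = 3.9e-09), and SPRET 75.5 and 80.1, 47.4 and 54.3 and 55.5 and 53.0 TPM (-0.51 ± 0.06 (SE), adjusted p = 2.7e-05). Acsl1 fell in both, from 149 and 143 to 79.0 and 84.5 TPM in C57 (-0.83) and from 119 and 128 to 52.7 and 54.9 TPM in SPRET (-1.18), already at 1 h in SPRET (-0.32). Fabp5 fell in C57 from 809.6 and 747 to 496 and 522 TPM (-0.61) and rose in SPRET from 616 and 566 to 889 and 950.2 TPM (0.64). Ehhadh fell in C57 from 3.52 and 2.91 to 1.42 and 1.24 TPM (-0.85) and stood at 14.1 and 13.8 and 16.7 and 15.0 TPM in SPRET. The 24 h responses of the strains differed for 21 members (28.9% of all genes), 15 of them larger in SPRET and 6 smaller, or 17 higher and 3 lower with median-ratio scaling. At basal 35 members differed (60.7% of all genes), with Pnpla2 at 172 and 175 TPM in SPRET and 53.6 and 58.5 TPM in C57 (1.61) and Eci2 at 53.4 and 54.0 and 24.9 and 22.0 TPM (1.16).

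**Figure D4:**
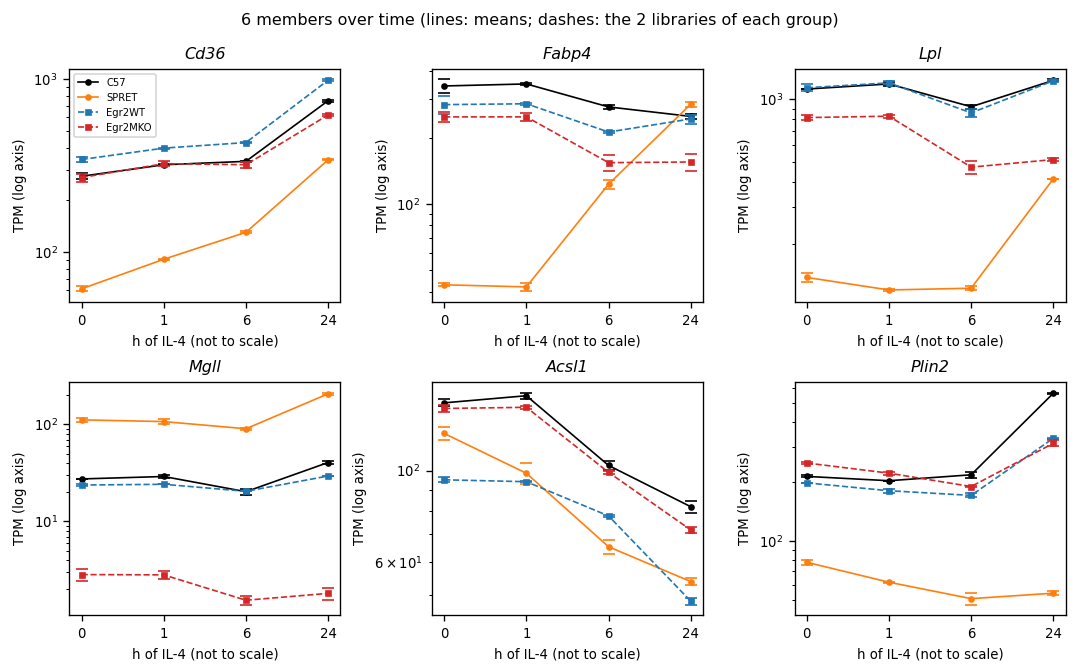
TPM (log axis) of Cd36, Fabp4, Lpl, Mgll, Acsl1 and Plin2 at 0, 1, 6 and 24 h of IL-4 in C57 and SPRET (solid lines) and in Egr2WT and Egr2MKO (broken lines, another table); lines join group means and short dashes are the 2 libraries of each group. In SPRET Fabp4 climbs from 6 h on and Lpl at 24 h, Plin2 climbs in C57 and not in SPRET, and Mgll in Egr2MKO lies far below the other 3 lines.

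EGR2 is a zinc finger transcription factor known to be induced by IL-4, and the floxed lines compare cells with and without LyzM-Cre. No group carried LyzM-Cre without the floxed Egr2 alleles, so loss of Egr2 and presence of Cre cannot be told apart. Egr2 itself was at 23.6 and 21.3 TPM in basal Egr2WT and 101 and 99.5 TPM after 24 h of IL-4, and at 0.859 and 0.854 and 4.72 and 7.05 TPM in Egr2MKO. In Egr2WT no member passed at 1 h in limma (3.24% of all genes did), with 2 higher and 3 lower at an unadjusted p under 0.05. In the same cells 13 had changed at 6 h (25.5%), 5 higher and 8 lower or 3 higher and 10 lower with median-ratio scaling, and 11 rose and 6 fell at 24 h (30.3% in all), or 17 higher and 6 lower with median-ratio scaling. In Egr2MKO 14 members had changed at 24 h (28.0%), 7 higher and 7 lower, or 5 higher and 9 lower with median-ratio scaling. At 1 h in Egr2WT 2 members passed under quantile normalization.

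Mgll had the largest log2 difference between the genotypes of all 41 members, at basal and after 24 h. Egr2WT held 23.2 and 24.3 TPM at basal and 29.4 and 29.5 TPM after 24 h of IL-4, and Egr2MKO 2.46 and 3.21 and 2.08 and 1.55 TPM. No library of the 2 genotypes overlapped at any of the 4 times. The log2 difference was -2.70 ± 0.12 (SE), adjusted p = 6.8e-08 at basal and -3.44 ± 0.12 (SE), adjusted p = 1.7e-09 after 24 h, and the response was 0.30 in Egr2WT (no call) and -0.45 in Egr2MKO, a difference of -0.74 ± 0.17 (SE), adjusted p = 0.014. An Mgll promoter is shown because of this gap (GRCm38.p6, chr6:88724162-88724441, plus strand, 5′ to 3′, from 250 bases before to 30 after a RefSeq start), with the letters GTGGG, read on either strand, in capitals.
Mgll: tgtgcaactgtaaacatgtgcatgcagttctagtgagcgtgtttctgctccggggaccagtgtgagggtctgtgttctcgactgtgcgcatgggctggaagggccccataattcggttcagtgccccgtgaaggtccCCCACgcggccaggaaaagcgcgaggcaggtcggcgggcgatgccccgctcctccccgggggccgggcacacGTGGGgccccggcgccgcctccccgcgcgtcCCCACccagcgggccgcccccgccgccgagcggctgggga
It holds 3 such matches, letters that 62.0% of the 32851 RefSeq promoter windows hold on either strand. The window of the other RefSeq start of Mgll, at 88724704, where the gene begins in the deposited table, holds 0 over the same length. Its full window of 300 bases does hold these letters, beyond that length. The share of 62.0% was counted over such full windows.

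Lpl also parted. Egr2WT held 1094 and 1184 TPM at basal, 824 and 897 at 6 h and 1216 and 1246 at 24 h, and Egr2MKO 842 and 791, 503 and 436 and 505 and 518 TPM. Egr2WT fell at 6 h (-0.40) and had no call at 24 h (0.11), while the 24 h change in Egr2MKO was -0.67 ± 0.06 (SE), adjusted p = 6.4e-06, with a difference of responses of -0.79 ± 0.09 (SE), adjusted p = 1.6e-04. After 24 h the genotypes were -1.27 ± 0.06 (SE), adjusted p = 2.7e-08 apart. Cd36 rose in both, from 331 and 355 to 975 and 996 TPM in Egr2WT (1.52) and from 285 and 255 to 610.2 and 631 TPM in Egr2MKO (1.20), by less in Egr2MKO (-0.32 ± 0.08 (SE), adjusted p = 0.021, and -0.28 without a call with quantile normalization). Plin2 rose from 196 and 198 to 329 and 334 TPM in Egr2WT and from 247 and 250.1 to 302 and 323 TPM in Egr2MKO, a difference of responses of -0.42, with a higher basal level in Egr2MKO (0.33) and no call after 24 h (-0.08).

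Acsl1 fell in both, from 96.4 and 93.7 to 49.2 and 47.3 TPM and from 145 and 139 to 70.6 and 73.0 TPM, with a difference of responses of -0.01 ± 0.06 (SE), adjusted p = 0.97, while Egr2MKO was higher before and after (0.57 and 0.57). Lipa fell further in Egr2MKO (-0.64) than in Egr2WT (-0.26), by -0.38. Lipe fell in Egr2WT (-0.48) and had no call in Egr2MKO, a difference of 0.48, and Acsl5 differed by 0.26. In all, the genotypes differed for 9 members at basal (11.5% of all genes) and 20 after 24 h (37.4%), of which 8 were higher and 12 lower in Egr2MKO, or 3 higher and 19 lower with median-ratio scaling, which moved the median of all genes by -0.12. The responses differed for 7 (12.6%), 2 larger and 5 smaller in Egr2MKO, or 0 higher and 9 lower with median-ratio scaling.

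In the F1 libraries each gene has a value per parental allele, its expression weighted by the share of reads over strain differences that came from that allele. No test was run on the 2 libraries of a condition, the number of such reads behind a gene is unknown, and values are compared within a cross only. Ratios are log2 of C57 over the other allele, of values + 1. In F1 C57 x SPRET all 41 members had values above 0 on both alleles, and in basal cells the alleles of 7 members were over 2-fold apart (7.68% of 10840 genes above 0 on both alleles), where 11 members were over 2-fold apart between the parents (17.3%). For 7 of these 11 the F1 log2 ratio lay within 1 of the parental one, as it did for 46.2% of all genes with parents over 2-fold apart. Hadhb kept its gap, with 5.81 and 5.13 on the C57 allele and 18.5 and 20.6 on the SPRET allele (mean log2 ratio of C57 to SPRET -1.67, parents -1.90), and so did Ehhadh, with 2.14 and 2.00 on the C57 allele and 11.0 and 9.60 on the SPRET allele (-1.88, parents -1.79). Plin2 stood at 464 and 522 on the C57 allele and 215 and 254 on the SPRET allele (1.07, parents 1.32).

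Lpl did not keep its gap in the basal cells of either cross. In basal F1 C57 x SPRET it was 1086 and 961 on the C57 allele and 951 and 864 on the SPRET allele, a log2 ratio of 0.17 beside 4.16 between the parents, and in basal F1 C57 x NOD 7030.5 and 6684 on the C57 allele and 6066 and 6026 on the NOD allele, 0.18 beside 3.04. The alleles were thus nearly level in all 4 basal libraries. Fabp4 kept part, with 178 and 156 on the C57 allele and 48.3 and 47.6 on the SPRET allele at basal (1.78, parents 5.29) and 504 and 494 on the C57 allele and 362 and 339 on the SPRET allele after IL-4 (0.51), both alleles higher than before. Cd36 was 59.5 and 63.4 on the C57 allele and 90.5 and 101 on the SPRET allele at basal and 159 and 175 on the C57 allele and 212 and 210.0 on the SPRET allele after IL-4. Lipa, 1.57 apart between the parents on the log2 scale, was 495 and 480.1 on the C57 allele and 520.0 and 508 on the SPRET allele, a ratio of -0.08.

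Hsd17b4, with close parents, differed between alleles. Its parents were -0.13 apart at basal, and the F1 held 21.3 and 19.1 on the C57 allele and 52.6 and 58.4 on the SPRET allele, a log2 ratio of -1.41 at basal and -2.16 after IL-4. Mgll held 1.99 and 2.68 on the C57 allele and 9.72 and 11.9 on the SPRET allele in basal F1 C57 x SPRET (-1.83, parents -1.16) and 32.0 and 25.0 on the C57 allele and 45.6 and 45.2 on the NOD allele in basal F1 C57 x NOD (-0.66, parents -2.83). In basal F1 C57 x NOD 25 of the 41 members were listed at 0 in every allele column, Cd36, Fabp4 and Plin2 among them, and 11 had values above 0 in all 4. Of the oxidation genes low in NOD, Acadl was 762 and 697 on the C57 allele and 697 and 659 on the NOD allele (0.10, parents 1.26). The mean log2 ratios were -0.14 for Slc25a20 (parents 1.78) and -0.06 for Hsd17b4 (parents 1.67). The 2 libraries were far apart for Eci1, with ratios of -0.33 and 2.01 (mean 0.84, parents 0.78), Echs1, with -0.03 and 0.99 (mean 0.48, parents 0.85), Decr1, with 0.29 and -0.57 (mean -0.14, parents 0.75), and Hadh, with -0.32 and 0.49 (mean 0.08, parents 1.45). Acadvl (-1.17, parents 0.79), Cpt1a (0.48, parents 1.23) and Crat (0.76, parents 0.24) were listed at 0 in at least 1 of the 4 allele columns.

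**Figure D5:**
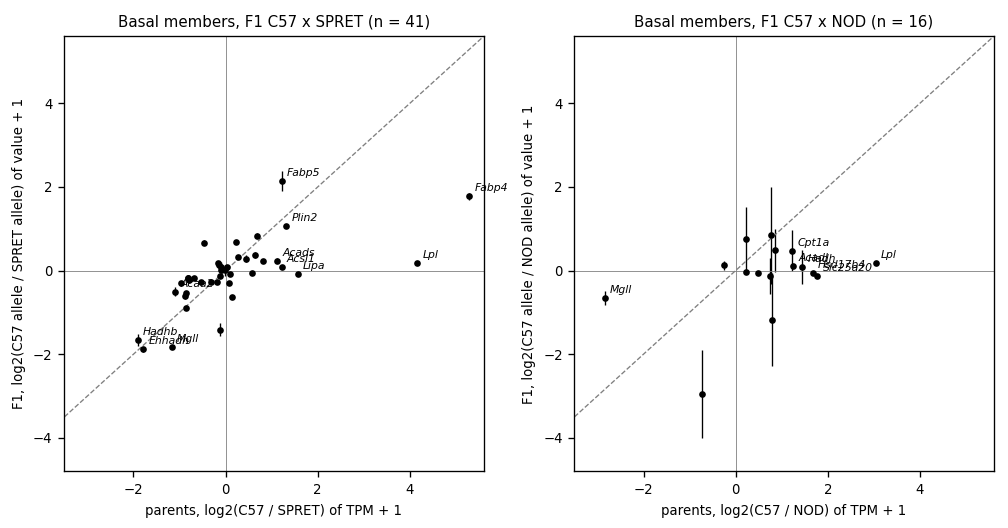
Log2 ratio of C57 to the other strain for basal members, between the parents (x axis, mean of log2(TPM + 1) in the 5-strain table) and between the alleles of the F1 (y axis, mean of 2 libraries, the bar spanning both), for F1 C57 x SPRET (41 members) and F1 C57 x NOD (16 members above 0). Hadhb and Ehhadh lie near the diagonal, Lpl lies near 0 on the y axis in both panels, and in the C57 x NOD panel Acadl, Slc25a20 and Hsd17b4 lie near 0 on the y axis while Eci1 (0.84), Echs1 (0.48) and Acadvl (-1.17) lie off it.

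Other genes of the pathway were read from a second list of 67 genes, 49 of them tested in the 5 strains. In C57 13 rose and 7 fell, in BALB 8 and 8, in NOD 16 and 3, in PWK 16 and 3, and in SPRET 17 and 7. The shares over all genes are those given for the members. Pparg, the gene of PPARγ, rose over 2-fold in all 5 strains, from 4.08, 3.40 and 4.08 to 23.2, 23.8 and 23.4 TPM in C57 (2.34 ± 0.08 (SE), adjusted p = 5.7e-18) and by 2.42 in SPRET, 2.13 in PWK, 1.32 in BALB and 1.31 in NOD. It rose in Egr2WT (1.86) and by less in Egr2MKO (1.48, difference -0.39 ± 0.10 (SE), adjusted p = 0.021). Abcd2, a peroxisomal transporter of long-chain acyl-CoA, rose over 2-fold in C57, BALB, PWK and SPRET (1.33, 1.07, 2.71 and 1.89). Slc27a6, a fatty acid transport protein, rose in C57 from 0.476, 0.709 and 0.715 to 3.09, 2.71 and 3.60 TPM (1.34) and over 2-fold in PWK and SPRET of the 5-strain table. In the time course it rose in C57 (1.93) and changed by 0.08 in SPRET without a call, a difference of -1.86 ± 0.15 (SE), adjusted p = 3.1e-06. Its response was 1.22 in Egr2WT and -0.18 (no call) in Egr2MKO, a difference of -1.40 ± 0.29 (SE), adjusted p = 0.0078.

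Another 3 of that list passed 2-fold in C57 alone among the 5 strains. Genes of the list that did so in a single other strain are not named. G0s2, an inhibitor of adipose triglyceride lipase, rose in C57 from 0.733, 0.398 and 0.945 to 2.64, 2.97 and 4.44 TPM (1.35 ± 0.14 (SE), adjusted p = 2.3e-08). Its responses in BALB, NOD, PWK and SPRET were lower than in C57, with differences of -1.36, -1.13, -1.19 and -1.32, each past the test. In these 4 strains G0s2 was near 0, with 0.408 TPM in NOD after IL-4 the highest value, so the differences mostly restate the rise in C57. Hilpda, a lipid droplet protein that also inhibits that lipase, rose in C57 from 104, 95.5 and 107 to 269, 313 and 282 TPM (1.48 ± 0.07 (SE), adjusted p = 1.5e-14), with differences from C57 between -1.70 in NOD and -0.95 in PWK for the same 4 strains, each past the test. In the time course Hilpda rose over 2-fold in both C57 (1.24) and SPRET (1.10), and the responses there differed by -0.14 ± 0.31 (SE), adjusted p = 0.79, without a call. Fabp3, the heart fatty acid-binding protein, fell in C57 from 23.9, 23.7 and 18.8 to 8.89, 11.2 and 8.02 TPM (-1.16 ± 0.15 (SE), adjusted p = 8.1e-07). It fell by less in BALB (-0.44) and NOD (-0.44), and its changes in PWK (0.44) and SPRET (-0.16) did not pass the test. The responses in BALB, NOD, PWK and SPRET differed from that in C57 by 0.72, 0.72, 1.60 and 1.00, each past the test.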

How the data were processed

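PolyA RNA-seq of BMDMs was taken as deposited, in 3 tables of TPM for 61 libraries and 2 allele tables for 8 F1 libraries. The authors mapped reads with STAR to strain genomes built from mm10 with MMARGE and quantified genes with HOMER as TPM, a unit relative to each library's total, so that a gene of very high level lowers the others. For the F1 tables, the authors mapped reads to both parental genomes and deposited allele-weighted expression values, a score with no fixed unit. Columns of the authors' DESeq2 comparisons, which hold fold changes and p-values, were not used, nor were 8 columns of a further table that match no sample.

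Groups were taken from the labels. Genes with at least 1 TPM in 2 libraries were tested on log2(TPM + 1), pseudocount 1 TPM, by limma 3.58.1 (R 4.3.3) with an intensity trend, group means of all libraries of a table and Benjamini-Hochberg adjustment over all genes tested, at 0.05, tested first on simulated data. Tables were made with pandas 2.3.3 and plots with matplotlib 3.10.9. Alternatives were pseudocounts of 0.1 and 5 TPM, no filter or a filter of 5 TPM, median-ratio and quantile scaling, only the compared groups, the replicate number as a block, and leaving out each library. Values per library are given for members that passed at over 2-fold in any comparison and for the 5 with the largest basal spread between strains. Other pathway genes are named when they passed at over 2-fold after 24 h of IL-4 in C57 or in at least 2 strains. A few further members are shown by library as examples of their role, chosen after their values were seen. The members, gene lists and tests were chosen with earlier results of these data known. Sequences are from RefSeq (GRCm38.p6).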

Additional observations from a re-analysis of the deposited data

Results flagged for a closer look

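In 6 comparisons the response to 24 h of IL-4 was tested for a difference between groups, and members passed in each. Their number was 10 in BALB against C57, 16 in NOD, 12 in PWK and 22 in SPRET, 21 in SPRET against C57 of the time course, and 7 in Egr2MKO against Egr2WT. These counts stand beside the shares of all genes given with the results, from 12.6% for the genotypes to 33.4% for SPRET of the 5 strains.

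Single members whose responses were over 2-fold apart were few. Acsl1, an acyl-CoA synthetase, fell in C57, and its response was higher by 1.26 on the log2 scale in NOD, 1.72 in PWK and 1.12 in SPRET. For Dgat2, the triglyceride-forming acyltransferase, the response in PWK differed from that in C57 by -1.50. For Fabp4 the response in SPRET exceeded that in C57 by 2.26 in the 5 strains and by 3.15 in the time course. In the time course the response in SPRET also differed from that in C57 by 1.01 for Cd36, 1.25 for Fabp5, 1.44 for Lpl, 1.03 for Ehhadh and -1.91 for Plin2. Lpl (0.88) and Fabp5 (0.89) differed in the same direction between these strains in the separate libraries of the 5-strain table, and Acsl1 differed in the opposite one (1.12 in the 5 strains, -0.35 in the time course).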

How the results depend on the processing

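Of 494 member values past the threshold, 494 kept direction and call with a filter of 5 TPM, 488 and 490 with pseudocounts of 0.1 and 5 TPM, 478 without a filter, 407 with only the compared groups in the fit, 428 with quantile normalization and 406 with median-ratio scaling. With median-ratio scaling 7 changed sign, namely the response of Ech1 in NOD (-0.038) and the basal differences from C57 in NOD of Fabp4 (0.018), Pnpla2 (0.10), Etfb (0.19), Crat (0.15) and Dgat1 (0.14) and in PWK of Acadvl (0.063). With quantile normalization Dgat1 in basal NOD did (0.056). With only the compared groups, which leaves fewer libraries to estimate the spread, members passing numbered 7 in BALB, 7 for the PWK difference from the C57 response, 0 and 4 at 1 and 6 h in C57 and 1 and 8 in SPRET of the time course, 7 in Egr2WT at 6 h and 5 between genotypes at basal. Quantile normalization gave 16 in NOD and 2 in Egr2WT at 1 h. In the F1, members with alleles over 2-fold apart in the NOD cross numbered 4 and 1 at basal with pseudocounts of 0.1 and 5, and after IL-4 1 in the NOD cross and 3 in the SPRET cross with 5, where 2, 3 and 5 stood with 1.

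Leaving out each library gave 6 to 11 members in BALB (6 without 24 h replicate 2, 7 without basal replicate 1), 11 to 21 in PWK (11 without basal replicate 2), 7 to 13 for the PWK difference from C57 (7 without C57 24 h replicate 3) and, in the time course, 0 to 1 in C57 at 1 h (0 without either 1 h library or without basal replicate 2), 2 to 5 in SPRET at 1 h (2 or 3 without either 1 h library or basal replicate 2) and 9 to 13 at 6 h (9 without 6 h replicate 2). Between the genotypes it gave 12 to 17 after IL-4 (12 without Egr2WT 24 h replicate 2) and 4 to 7 for the response (4 without Egr2WT 24 h replicate 1, Egr2WT basal replicate 1 or Egr2MKO basal replicate 2). Where a group is left with 1 library, that library is assumed to vary like the others. In NOD, where 25 members passed with all libraries, leaving out each library gave 17 to 25 (17 without basal replicate 1). Further counts of the time course and the Egr2 table, not listed here, also fell when a library was left out. No value changed sign when a library was left out.

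Libraries share only their replicate number. Deviations of same-numbered libraries had correlations of -0.09 to 0.33 in the 5 strains, -0.14 to 0.27 in the time course and -0.14 to 0.04 in the Egr2 table. With the replicate number as a block 482 of 494 values kept their call and none changed sign, and members passing numbered 27 in SPRET, 25 in NOD, 20 in PWK, 15 in C57 and 11 in BALB. TPM carry no counting error, so precision at low levels, as for Dgat2 and Ehhadh in C57, rests on the spread between 2 or 3 libraries.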
